A study of Mus musculus with 10 samples.

Results

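The genes described here are 9 regulators of fetal growth: the mRNA-binding proteins Igf2bp1, Igf2bp2 and Igf2bp3, the let-7 inhibitor Lin28b, the chromatin proteins Hmga1 and Hmga2, and the transcription factors Mycn, Sox4 and Sox11. They were taken by gene symbol, in a choice made with earlier results of these data known, and are 9 of the 54532 genes in the expression table. The data are bulk RNA sequencing of mouse lung at postnatal day 14 (P14) from WT pups of the C57/BL6 strain, male or female. In the IncPBF group (increased pulmonary blood flow, 5 lungs) an abdominal aorta to inferior vena cava fistula was made at P7. The sham group (5 lungs) went through anaesthesia with isoflurane and the same laparotomy, but the vessels were not punctured. All 10 lungs thus come from operated pups, and whole lung tissue was used with no sorting of cells. The labels do not give the litter or the sex of any lung, and p-values measure only the spread between these lungs.

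In the embryo, LIN28B binds the precursors of the let-7 microRNAs and keeps them from being processed, while let-7 lowers the mRNAs that carry its sites, Hmga2, Igf2bp1 and Lin28b among them. The IGF2BP proteins bind mRNAs of growth genes, such as Igf2 and Myc, and set how long these last and how well they are translated. HMGA1 and HMGA2 bind the minor groove of AT-rich DNA, MYCN drives proliferation of progenitors at the tips of the growing lung, and SOX4 and SOX11 are closely related transcription factors of the SOXC group. Most of these genes are high before birth and decline afterwards, and Igf2bp2, Hmga1 and Sox4 stay on in many adult tissues.

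Levels are given as FPKM, fragments per kilobase of gene length per 1000000 fragments, so that genes of different length can be set side by side. Each lung had between 16103423 and 20318525 fragments on genes. Markers of lung tissue were present in every library, with Sftpc, the surfactant gene of type II alveolar (AT2) cells, between 9580 and 14100 FPKM. The libraries differed in sex-linked genes in a way that the labels do not give. Xist, the RNA of the inactive X chromosome, stood between 52.4 and 66.5 FPKM in IncPBF lungs 2 to 5, at 0.0144 FPKM in IncPBF lung 1, and between 0.0064 and 0.077 FPKM in the 5 sham lungs. Ddx3y, from the Y chromosome, had the reverse pattern, with 18.6 FPKM in IncPBF lung 1 and 21.8 to 24.6 FPKM in sham, while IncPBF lungs 2 to 5 did not exceed 0.00926 FPKM. IncPBF lung 1 is thus the library of its group that is like the sham lungs in these genes, and its value is set beside the sham range for each member that differed. For the other 4 IncPBF lungs, sex-linked expression and the surgery cannot be told apart.

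The 9 genes covered a wide range of levels in both groups. By the group median, the order in the sham lungs was Sox4, Hmga1, Sox11, Igf2bp2, Mycn, Igf2bp1, Igf2bp3, Hmga2 and Lin28b. Neighbours in this order had ranges that did not overlap, except Igf2bp1 (0.322 to 0.564 FPKM) and Igf2bp3 (0.423 to 0.645 FPKM). In the IncPBF lungs the order was Sox4, Hmga1, Sox11, Mycn, Igf2bp2, Igf2bp3, Igf2bp1, Hmga2 and Lin28b, and the overlapping neighbours were Igf2bp1 (0.267 to 0.43 FPKM) and Hmga2 (0.216 to 0.449 FPKM). Mycn and Igf2bp2 stood in opposite order in the groups: Igf2bp2 was the higher of the pair in each sham lung and Mycn in each IncPBF lung.

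**Figure D1:**
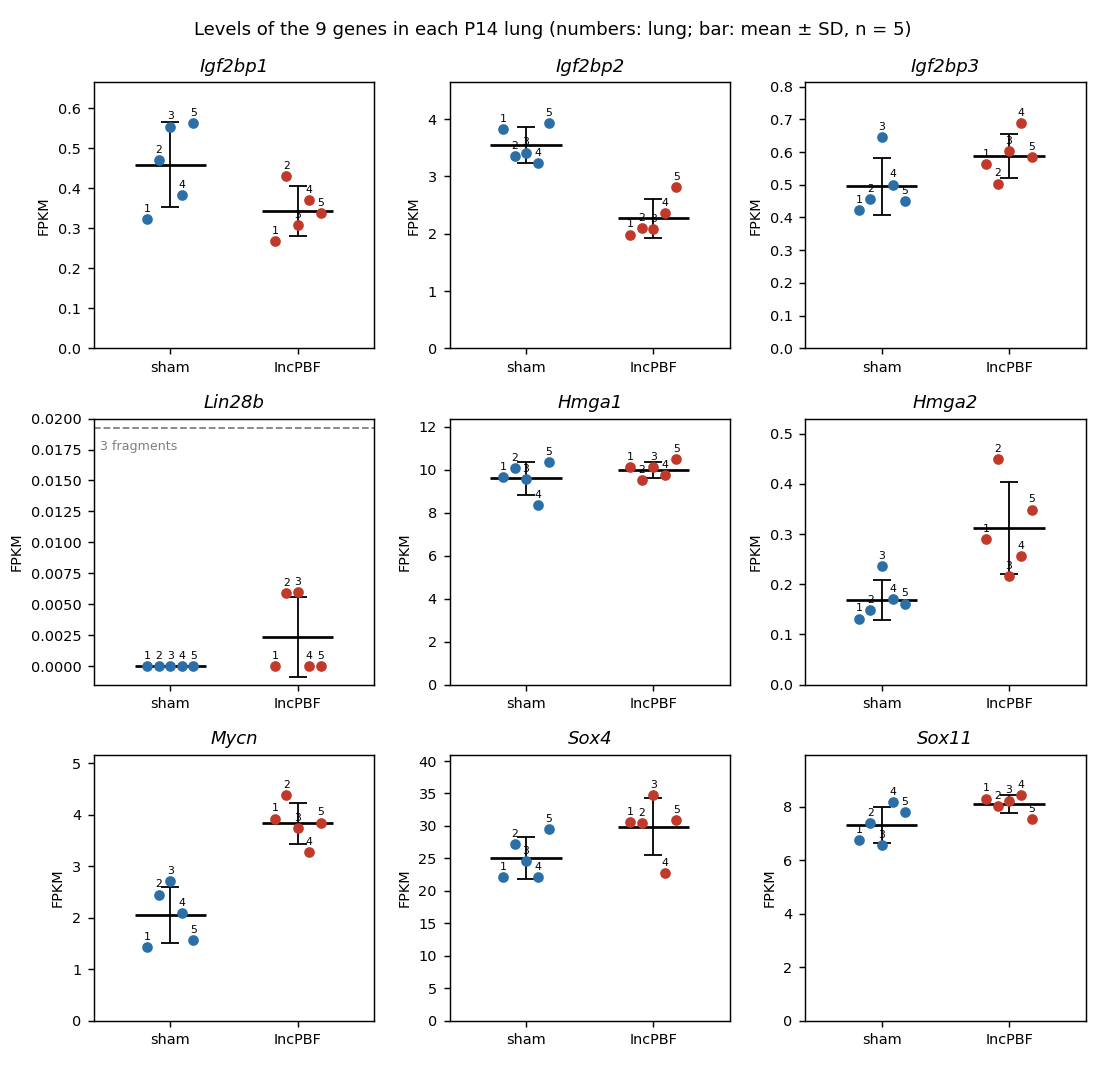
FPKM of each of the 9 genes in the 5 sham and the 5 IncPBF lungs, with the lung number above each point and the mean ± SD as bars. The groups do not overlap for Igf2bp2 and Mycn, all but 2 lungs are at 0 for Lin28b, and the dashed line there is the highest FPKM that 3 fragments stand for.

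A gene was tested where its mean over the 10 lungs was at least 0.5 FPKM, which held for 15388 genes and for 6 of the 9. Of these 6, Mycn rose and Igf2bp2 fell in the IncPBF lungs, and Igf2bp3, Hmga1, Sox4 and Sox11 did not pass the test, which was limma on log2(FPKM + 0.1) with a threshold of 0.05 on the adjusted p. The same test called 32.3% of all tested genes, 2480 higher and 2490 lower, so that 2 of 6 is near the share among all genes. With each lung scaled to an equal total of fragments on genes, 3559 genes were called higher and 1782 lower. The groups did not overlap for 2 of the 6 tested genes and for none of the 3 under the filter, against 23.2% of the genes tested (12.0% with IncPBF higher and 11.2% with IncPBF lower). The median log2 fold change was 0.18 over the 6 genes and 0.01 over all genes tested. In whole lung tissue, fewer cells of a type and less RNA per cell cannot be told apart.

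**Figure D2:**
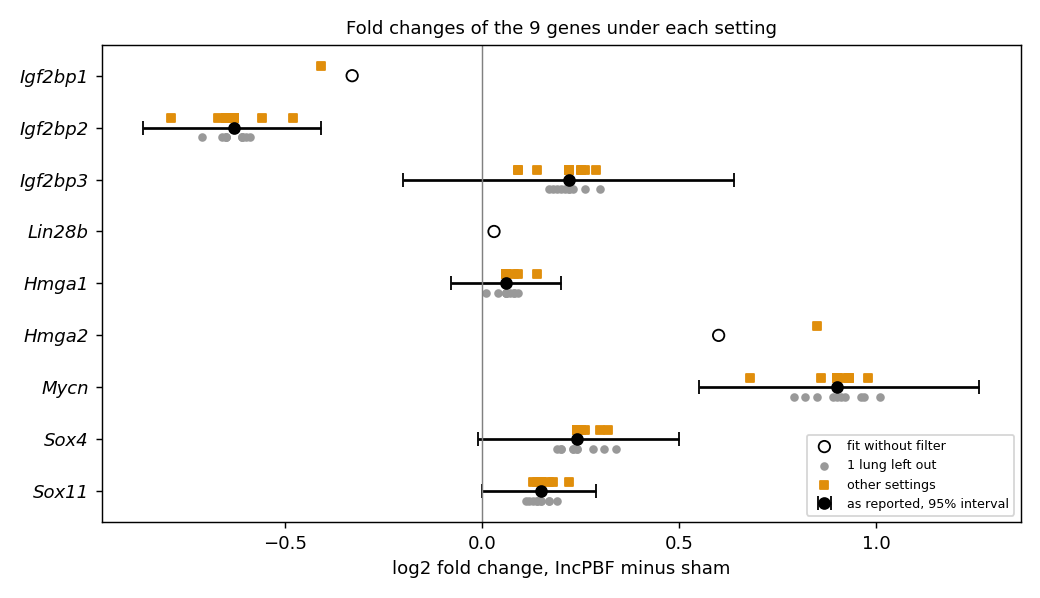
Log2 fold change (IncPBF minus sham) of each gene, with its 95% interval where it was tested (black), with 1 lung left out (grey) and under the other settings (orange). Open circles are genes under the expression filter. Igf2bp2 lies below 0 and Mycn above 0 under every setting shown.

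Igf2bp2 was the IGF2BP gene with the highest level, and its fall passed the test. It lies on the minus strand at chr16:22059009-22163299 (GRCm38, ENSMUSG00000033581). The sham lungs 1 to 5 had 3.82, 3.35, 3.42, 3.24 and 3.93 FPKM. The IncPBF lungs 1 to 5 had 1.98, 2.10, 2.08, 2.36 and 2.82 FPKM. Each IncPBF lung was thus below each sham lung, and IncPBF lung 1 was the lowest of the 10. The means were 2.27 ± 0.337 FPKM in IncPBF and 3.55 ± 0.308 FPKM in sham (SD, n = 5 each), a ratio of 0.638. The log2 fold change was -0.63 with a standard error of 0.10 (95% interval -0.86 to -0.41, adjusted p = 0.00103, limma). The exact permutation test over all splits of the lungs into groups of 5 gave p = 0.00794 (two-sided), the smallest this design can give. Between 284 and 508 fragments per lung stood behind these values. With log2 Xist as a covariate, a fit in which the difference rests on IncPBF lung 1, the log2 fold change was -0.79 (adjusted p = 0.0338, limma).

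Igf2bp3 and Igf2bp1, the members of the family that are largely limited to the fetus and to tumours, were present at a low level in all 10 lungs. Igf2bp3 (chr6:49085223-49214957, minus strand, ENSMUSG00000029814) had 0.423, 0.455, 0.645, 0.5 and 0.450 FPKM in sham lungs 1 to 5 and 0.564, 0.504, 0.604, 0.689 and 0.584 FPKM in IncPBF lungs 1 to 5. Sham lung 3 stood inside the IncPBF range, and the groups overlapped. The log2 fold change was 0.22 with a standard error of 0.19 (95% interval -0.20 to 0.64, adjusted p = 0.413, limma). The mean of Igf2bp3 over the 10 lungs, 0.542 FPKM, was just above the filter, and its sham mean, 0.495 FPKM, was below it. On the opposite strand Igf2bp3 overlaps Malsu1, which had up to 222 fragments in a lung, and whether the counting used strand is not given in the sources used here.

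Igf2bp1 (chr11:95957163-96005940, minus strand, ENSMUSG00000013415) was under the filter, with a mean of 0.401 FPKM over the 10 lungs. Its values were 0.322, 0.471, 0.554, 0.384 and 0.564 FPKM in sham lungs 1 to 5. In IncPBF lungs 1 to 5 they were 0.267, 0.430, 0.307, 0.371 and 0.338 FPKM. The ranges overlapped, the ratio of the means was 0.747, and the two-sided exact permutation test gave p = 0.0794. Without sham lung 1 the exact permutation test gave p = 0.0317. Between 50 and 101 fragments per lung stood behind Igf2bp1.

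Igf2bp2 and Igf2bp1 were thus lower by their means in IncPBF and Igf2bp3 higher, with a test passed for Igf2bp2 alone. Igf2, the growth factor whose mRNA gave the family its name, had between 0.0337 and 0.235 FPKM in the IncPBF lungs and between 0.0389 and 0.12 FPKM in the sham lungs, at most 26 fragments per lung, and was not tested.

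**Figure D3:**
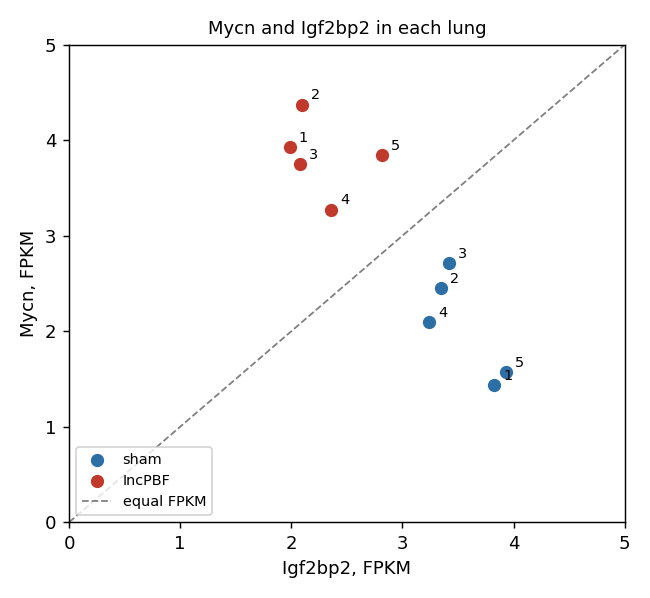
FPKM of Mycn (vertical) against FPKM of Igf2bp2 (horizontal) in each lung, with equal levels on the dashed line. All 5 sham lungs lie below the line, with Igf2bp2 between 3.24 and 3.93 FPKM, and all 5 IncPBF lungs above it, with Mycn between 3.27 and 4.37 FPKM.

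Mycn, the MYC family member that marks progenitor cells of the developing lung, had the largest fold change of the 6 tested genes. It was the only rise among them that passed the test. It lies on the minus strand at chr12:12936093-12941914 (GRCm38, ENSMUSG00000037169). The IncPBF lungs 1 to 5 had 3.92, 4.37, 3.75, 3.27 and 3.84 FPKM, and the sham lungs 1 to 5 had 1.44, 2.45, 2.71, 2.10 and 1.57 FPKM. The lowest IncPBF lung stood above the highest sham lung, and the sham lungs were the more spread, with a coefficient of variation of 26.7% against 10.3%. The means were 3.83 ± 0.394 FPKM in IncPBF and 2.05 ± 0.548 FPKM in sham (SD, n = 5 each), a ratio of 1.87. The log2 fold change was 0.90 with a standard error of 0.16 (95% interval 0.55 to 1.26, adjusted p = 0.00189, limma), and the exact permutation test gave p = 0.00794 (two-sided). Fragments ranged from 186 to 270 per IncPBF lung and from 85 to 168 per sham lung.

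IncPBF lung 1, which is like the sham lungs in Xist, had 3.92 FPKM of Mycn against at most 2.71 FPKM in a sham lung. With log2 Xist as a covariate, the log2 fold change of Mycn was 0.91 but its standard error was 0.29, and the call was lost (adjusted p = 0.108, limma). Under this covariate 4.82% of all tested genes were called.

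Hmga2, the most strictly fetal of the HMGA genes, was low in all lungs and had its higher values in IncPBF. It lies on the minus strand at chr10:120361275-120476469 (GRCm38, ENSMUSG00000056758). The IncPBF lungs 1 to 5 had 0.290, 0.449, 0.216, 0.257 and 0.348 FPKM, and the sham lungs 1 to 5 had 0.132, 0.149, 0.235, 0.170 and 0.161 FPKM. The groups overlapped through sham lung 3, which stood above IncPBF lung 3. The ratio of the means was 1.84 (0.312 ± 0.0907 against 0.169 ± 0.0396 FPKM, SD, n = 5 each), and the two-sided exact permutation test gave p = 0.0159. These values rest on 27 to 57 fragments per IncPBF lung and 16 to 30 per sham lung. The outcome of the test across genes differed between fits. Without the filter, the log2 fold change was 0.60 (adjusted p = 0.111, limma). With limma-voom on the recovered fragments of genes with a mean of at least 10 fragments, an alternative chosen after seeing the data, it was 0.85 with a standard error of 0.25 (adjusted p = 0.0171), in a fit that called 32.8% of 16380 genes.

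Hmga1 (chr17:27556497-27563674, plus strand, ENSMUSG00000046711) stood at similar levels in both groups and was the member with the smallest fold change among those tested. The IncPBF lungs 1 to 5 had 10.1, 9.52, 10.1, 9.74 and 10.5 FPKM, and the sham lungs 1 to 5 had 9.65, 10.1, 9.55, 8.37 and 10.4 FPKM. The log2 fold change was 0.06 with a 95% interval of -0.08 to 0.20 (adjusted p = 0.49, limma), and the two-sided exact permutation test gave p = 0.357. As a share of all fragments on genes, Hmga1 differed between the groups by 2.05 CPM (fragments per 1000000 on genes), with p = 0.00794 in the exact permutation test. The value of Hmga1 is uncertain because 55% of the 50-base stretches of its transcripts are also in Hmga1b, a near-identical copy. On the authors' scale, Hmga1 and Hmga1b together had 23.3 ± 0.693 CPM in IncPBF and 22.7 ± 1.75 CPM in sham (SD, n = 5 each, exact permutation p = 0.587). As a share of fragments on genes the pair had 24.4 ± 0.488 and 22.5 ± 1.34 CPM (exact permutation p = 0.00794), so the outcome of the exact test depended on the scaling. In limma with an equal total per lung, the log2 fold change of Hmga1 was 0.14 and did not pass the threshold (adjusted p = 0.0624). On the opposite strand Hmga1 also overlaps AI413582, which had up to 149 fragments in a lung.

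Lin28b, which blocks let-7 processing in the embryo, was not detectable at this depth. It lies on the minus strand at chr10:45376620-45486395 (GRCm38, ENSMUSG00000063804). IncPBF lungs 2 and 3 had 1 fragment each, and the other 8 lungs had none. A count of 0 allows up to 3 fragments, which for this gene is 0.0159 to 0.0192 FPKM depending on the lung. Its paralogue Lin28a had at most 5 fragments in a lung and at most 0.0664 FPKM. Fragment floors and counts cover counting error only.

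Lin28b, Igf2bp1 and Hmga2, named above as mRNAs that carry let-7 sites, held many such sites in the 3′ UTR. As this trait was known beforehand, the counts below describe the genes and are no independent result. The let-7 family is shown here because its seed is the sequence these sites pair with. The mature sequences are from RefSeq (GRCm38.p6), 5′ to 3′, with the seed, bases 2 to 8, in capitals, and the 6 shown have the same seed.
let-7a: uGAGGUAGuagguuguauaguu
let-7b: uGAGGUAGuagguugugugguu
let-7c: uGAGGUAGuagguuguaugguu
let-7g: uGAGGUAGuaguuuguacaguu
let-7i: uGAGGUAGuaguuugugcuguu
miR-98: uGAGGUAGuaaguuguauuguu

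The letters CTACCTC, the complement of that seed, were counted on the sense strand of the longest annotated 3′ UTR of each gene. Hmga2 held 4 in 3014 bases, Igf2bp1 held 4 in 6337 bases and Lin28b held 4 in 4445 bases. Igf2bp2, Igf2bp3 and Hmga1 held 1 each, and Mycn, Sox4 and Sox11 held none. Of 13033 tested genes with an annotated 3′ UTR, 0.0537% had 4 or more such sites and 10.5% had at least 1. Among tested genes with a UTR of like length, the share with 4 or more was 0.115% of 1738 for Hmga2, 0.198% of 1011 for Lin28b and 0 of 421 for Igf2bp1. The sites below are those of Hmga2, the gene with the most sites per base, and the single sites of Igf2bp2, Igf2bp3 and Hmga1, for which levels were measured in each lung. Each is the 30 bases ending 1 base after the match (GRCm38), written 5′ to 3′ on the strand of the gene with the match in capitals.
Hmga2, chr10:120364224-120364253, minus strand: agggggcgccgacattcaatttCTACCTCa
Hmga2, chr10:120362987-120363016, minus strand: caataatccccactcctcaataCTACCTCt
Hmga2, chr10:120362549-120362578, minus strand: ggacttcctgatttgcaaggaaCTACCTCc
Hmga2, chr10:120361691-120361720, minus strand: gttgtacaatcaaaacacactaCTACCTCt
Igf2bp2, chr16:22059473-22059502, minus strand: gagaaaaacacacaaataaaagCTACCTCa
Igf2bp3, chr6:49086787-49086816, minus strand: ttaaacgtgcatttttactcaaCTACCTCa
Hmga1, chr17:27563270-27563299, plus strand: catcttctcctctgttcacaaaCTACCTCt

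**Figure D4:**
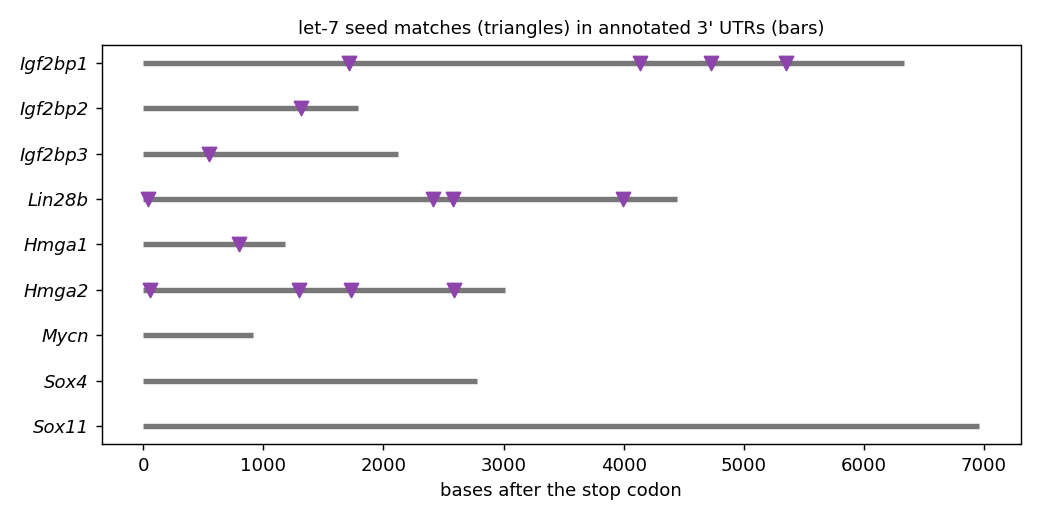
Position of each let-7 seed match (triangle) in the longest annotated 3′ UTR (bar) of each gene, in bases after the stop codon. Hmga2, Igf2bp1 and Lin28b hold 4 matches each and Mycn, Sox4 and Sox11 none.

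The number of sites did not set the members apart by direction. Of the genes with 4 sites, Hmga2 had a mean ratio of 1.84 and Igf2bp1 of 0.747, and Lin28b was not detectable. Igf2bp2, with a single site, fell, and Mycn, with none, rose. A match is a description of the letters and does not show that let-7 acted on the site. Mature let-7 is too short for these libraries and was not measured. Among the transcripts that overlap let-7 hairpins, Lncppara, the host of let-7b and let-7c-2, rose from 2.56 ± 0.419 to 3.66 ± 0.451 FPKM (SD, n = 5 each, log2 fold change 0.51, adjusted p = 0.00876, limma). Wdr82, which overlaps let-7g, rose from 18.9 ± 0.862 to 21.1 ± 0.937 FPKM (log2 fold change 0.16, adjusted p = 0.0306, limma). With log2 Xist as a covariate, neither was called (adjusted p = 0.219 for Lncppara and 0.262 for Wdr82, limma). The other overlapping transcripts that were tested, Huwe1, 6720427I07Rik, Spaca6 and D630033A02Rik, did not pass the test, with adjusted p between 0.0681 and 0.946 in limma.

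Sox4 was the most abundant of the 9 genes. It lies on the minus strand at chr13:28948919-28953713 (GRCm38, ENSMUSG00000076431). The IncPBF lungs 1 to 5 had 30.6, 30.4, 34.7, 22.8 and 30.9 FPKM, and the sham lungs 1 to 5 had 22.1, 27.2, 24.6, 22.2 and 29.6 FPKM. Apart from IncPBF lung 4, which lay at the low end of the sham range, each IncPBF lung was above each sham lung. The log2 fold change was 0.24 with a standard error of 0.12 (95% interval -0.01 to 0.50, adjusted p = 0.126, limma), and the two-sided exact permutation test gave p = 0.0794. Without IncPBF lung 4 the log2 fold change was 0.34 and passed the threshold (adjusted p = 0.0236, limma). With an equal total per lung it was 0.32 and passed too (adjusted p = 0.0335, limma). Between 1885 and 3081 fragments per lung stood behind Sox4.

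Sox11, a neural and mesenchymal SOXC factor of the embryo, varied less. It lies on the minus strand at chr12:27334264-27342574 (GRCm38, ENSMUSG00000063632). The IncPBF lungs 1 to 5 had 8.31, 8.03, 8.24, 8.43 and 7.56 FPKM, and the sham lungs 1 to 5 had 6.77, 7.40, 6.58, 8.18 and 7.79 FPKM. IncPBF lung 5 lay below sham lungs 4 and 5, so the groups overlapped. The log2 fold change was 0.15 with a standard error of 0.07 (adjusted p = 0.123, limma), and the two-sided exact permutation test gave p = 0.0556. With an equal total per lung the log2 fold change was 0.22 and passed the threshold (adjusted p = 0.0286, limma).

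Sox12, the remaining SOXC gene and no member of the set, rose with a larger fold change, from 5.57 ± 1.07 to 8.30 ± 1.00 FPKM (SD, n = 5 each, log2 fold change 0.58, adjusted p = 0.00747, limma). It was between 7.17 and 9.86 FPKM in the IncPBF lungs and between 3.88 and 6.73 FPKM in the sham lungs, with no overlap. Among the SOX factors outside the set, Sox12 included, 8 of 17 were tested, 2 rose and 3 fell (16.1% and 16.2% among all genes). Their median log2 fold change was -0.16. Quantile normalization gave 1 and 3, against 2554 and 2567 of all 15388 tested genes. Beside Sox12, Sox9, a factor of distal tip progenitors and cartilage, rose (0.83). Sox5 (-0.50), Sox13 (-0.40) and the endothelial gene Sox7 (-0.33) fell on the log2 scale.

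In the MYC, MAX and MXD network around Mycn, 2 of 11 tested genes rose and 5 fell (16.1% and 16.2% among all genes). Myc rose from 2.39 ± 0.257 to 3.69 ± 0.425 FPKM (SD, n = 5 each, log2 fold change 0.61, adjusted p = 0.00104, limma), with no overlap between the groups. Mxd3, a partner of MAX that is expressed in dividing cells, rose (log2 fold change 1.30), while Mxd4 (-0.65), Mlxip (-0.51) and Mxi1 (-0.32) fell. Mycl had a log2 fold change of 0.14 and did not pass the test (adjusted p = 0.788, limma). Of 23 genes known to be regulated by MYC in cell growth, 19 rose and none fell, against 16.1% called higher among all genes, with a median log2 fold change of 0.39. Nop58, a ribosome biogenesis protein, rose by 0.69, the cyclin-dependent kinase Cdk4 by 0.68 and Odc1, the enzyme of polyamine synthesis, by 0.67 on the log2 scale. Tfrc (0.02), Dkc1 (0.15), Cad (0.18) and Polr1b (0.20) of the same list did not pass the test. All 23 cell cycle genes rose (16.1% among all genes), with a median of 0.95, led by Cdk1 (1.31), Birc5 (1.23) and Ccnb2 (1.19).

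**Figure D5:**
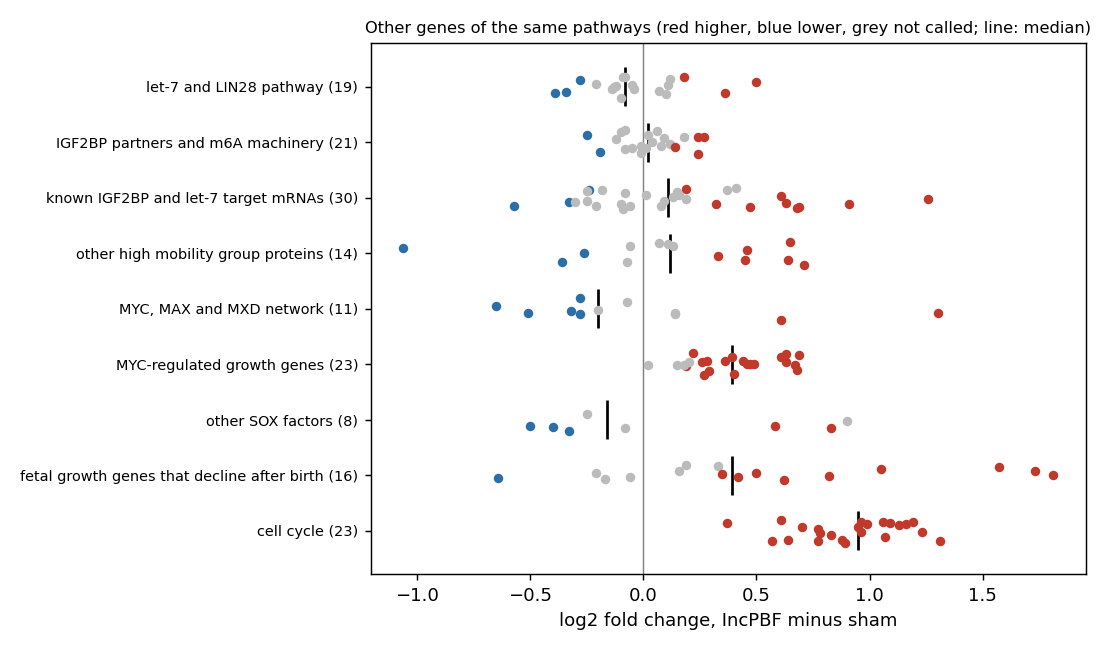
Log2 fold change (IncPBF minus sham) of each tested gene in 9 lists related to the genes described, with the number tested in parentheses, called genes in red (higher) or blue (lower), others in grey, and the list median as a line. Cell cycle and MYC-regulated growth genes lie above 0, and the let-7 and LIN28 pathway and the IGF2BP partners lie around 0.

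Called genes of the machinery around Lin28b and let-7 were near the share among all genes (32.3%). Over all 15388 tested genes, an equal total per lung gave 3559 higher and 1782 lower. Leaving out IncPBF lung 4 gave 1950 and 1919. Of 19 tested genes of the let-7 and LIN28 pathway, 3 rose and 3 fell, with a median log2 fold change of -0.08, against 4 and 1 with an equal total per lung and 3 and 1 without IncPBF lung 4. Hnrnpa1 (0.50), Prkra (0.36) and Dgcr8 (0.18), which act in the processing of microRNA precursors, rose. Tnrc6b (-0.39), a partner of Argonaute, the RNA editing enzyme Adar (-0.34) and Tut7 (-0.28), which adds uridines to let-7 precursors, fell. Dicer1 (-0.12), Drosha (-0.04), Tut4 (-0.08) and Dis3l2 (0.10), the nuclease for uridylated let-7, did not pass the test. Of 21 IGF2BP partners and genes of m6A methylation, 4 rose and 2 fell, with a median of 0.02, against 8 and 1 with an equal total per lung and 3 and 0 without IncPBF lung 4. The stabilizing protein Elavl1 (0.27), Syncrip (0.24) and Hnrnpu (0.24) rose, and the m6A demethylase Alkbh5 (-0.25) and Pabpc1 (-0.19) fell.

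Of 30 tested mRNAs that are known targets of IGF2BP proteins or let-7, 9 rose and 3 fell, with a median log2 fold change of 0.11. Among all genes 16.1% rose and 16.2% fell, 32.3% together. Thbs1, an adhesive matrix glycoprotein (1.26), the hyaluronan receptor Cd44 (0.91) and the cell cycle phosphatase Cdc25a (0.69) rose, and the insulin pathway genes Irs2 (-0.57) and Insr (-0.33) and the receptor Tgfbr1 (-0.24) fell. With an equal total per lung 15 of these 30 were called higher and 2 lower, against 3559 (23.1%) and 1782 of all 15388 tested genes. Without IncPBF lung 4 the counts were 10 and 1, against 1950 and 1919 of all tested genes. Among the other high mobility group proteins, 6 of 14 rose and 3 fell (16.1% and 16.2% among all genes). Hmgb2 (0.71), Hmgn2 (0.65) and Hmgb3 (0.64) rose, and Tox2 (-1.06), Hmgxb3 (-0.36) and Tox3 (-0.26) fell.

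Among other fetal growth genes that decline after birth, 9 of 16 tested rose and 1 fell, against 16.1% and 16.2% among all genes, with a median log2 fold change of 0.39. H19, an imprinted RNA that restrains growth, rose from 7.07 ± 1.71 to 24.5 ± 2.99 FPKM (SD, n = 5 each, log2 fold change 1.81, adjusted p = 1.55e-05, limma). The imprinted gene Dlk1 (1.73) and the growth factor Mdk (1.57) rose as well. Cdkn1c, an imprinted cyclin-dependent kinase inhibitor, fell from 51.9 ± 2.30 to 33.4 ± 3.10 FPKM (SD, n = 5 each, log2 fold change -0.64, limma). H19 was at 29.4 FPKM in IncPBF lung 1, above the highest sham lung, at 9.70 FPKM. With log2 Xist as a covariate, the difference rests on IncPBF lung 1, and fewer genes passed the test in each pathway list and over all tested genes. The median log2 fold change was then 0.32 for MYC-regulated genes, 0.77 for cell cycle genes and 0.42 for fetal growth genes. It was 0.10 for the IGF2BP and let-7 targets, -0.03 for the let-7 and LIN28 pathway and 0.04 for the IGF2BP partners. For the other SOX factors it was -0.15, for the MYC network -0.21 and over all tested genes 0.0174.

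The expression pattern over the 10 lungs that was most like each tested gene was found by Pearson correlation on log2(FPKM + 0.1), as a description. Part of each value is the shared difference between the groups, so the correlation of the deviations from the group means is given beside it. The genes were picked as the highest among all tested genes over only 10 lungs. Such picking raises the values, also those within groups. For Igf2bp2 the closest was Herpud1, with 0.984 over the 10 lungs and 0.913 within groups, followed by Fam126b (0.974 and 0.843) and Dym (0.974 and 0.844). Mycn was closest to Scpep1 (0.978 over the lungs and 0.918 within groups), Adh1 (0.975 and 0.898) and Rxrg (0.974 and 0.892). Sox4 was closest to Usp4 (0.94 and 0.913), Ypel1 and Scamp3 (both 0.919 and 0.881). Sox11 was closest to 1700021F05Rik (0.937 and 0.904), Bin1 (0.937 and 0.898) and 3010003L21Rik (0.898 and 0.827). Hmga1 was closest to Mgat1 (0.91 and 0.898), Dhx29 (0.901 and 0.921) and Nicn1 (0.9 and 0.888), and Igf2bp3 to Iqcc (0.968 and 0.953), Mall (0.967 and 0.958) and Zcchc9 (0.936 and 0.921).

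Markers of several cell types moved with the groups, and their part in the results was not tested. Counts are of tested markers called by limma, against 16.1% called higher and 16.2% called lower among all genes. Of the markers of type I alveolar (AT1) cells, 9 of 10 were called lower in IncPBF. Their summed level was 1450 to 1600 FPKM against 1810 to 2440 FPKM. AT2 markers were called lower for 5 of 9 (11600 to 14300 against 14200 to 17600 FPKM). Endothelial markers were called lower for 6 of 10 and higher for 1 (1160 to 1260 against 1220 to 1550 FPKM). Myofibroblast and smooth muscle markers were called higher for 6 of 10 and lower for 1 (361 to 664 against 155 to 284 FPKM). Fibroblast markers were called higher for 2 and lower for 3 of 10 (3230 to 3420 against 3670 to 4630 FPKM). Macrophage markers were called lower for 2 of 10, which is near the share among all genes. Erythroid markers were called lower for 5 of 8 and mesothelial markers for 4 of 4. Summed levels were 1180 to 1800 against 2270 to 2900 FPKM for macrophages, 266 to 1950 against 1480 to 2460 FPKM for erythroid cells and 46.7 to 76.0 against 82.2 to 159 FPKM for mesothelium. No marker passed the test among those of airway epithelium (5120 to 10800 against 245 to 12700 FPKM), lymphocytes (21.2 to 24.6 against 23.2 to 29.9 FPKM) or cardiac muscle (33.9 to 101 against 8.85 to 47.6 FPKM). Some sums were mostly 1 gene. These were Lyz2 for macrophages (means of 1390 in IncPBF and 2370 FPKM in sham), Sftpc for AT2 cells (10400 and 12100 FPKM, not called) and Scgb1a1 for airway (6440 and 5990 FPKM, not called). Of the 10 macrophage markers, 7 had a log2 fold change below 0 and 3 above. Krt5 of airway basal cells and Nppa of cardiac muscle had at most 3 fragments in any lung.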

How the data were processed

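RNA was sequenced from 10 P14 lungs, 5 per group. According to the labels and the study's methods, RNA was isolated (Trizol in the labels, a column kit in the methods), libraries were made with the NEBNext Ultra kit and sequenced on an Illumina instrument. The authors deposited 1 table of FPKM with a gene length for each gene. The submitters' processing notes name the builds GRCm38, mm10 and hg38 and Bowtie 0.12.2, without their roles, and the counting program is not given in the sources used here. Coordinates of all 9 genes in the table matched the GENCODE annotation of GRCm38. FPKM times the deposited length and a divisor per lung gave whole fragments for 100.0% of values (tolerance 0.01), 16103423 to 20318525 per lung. In the table the IncPBF columns are abbreviated differently from the titles and were matched by day and number.

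The main test was limma 3.58.1 (R 4.3.3) with a trend of the variance with the level on log2(FPKM + 0.1), over genes with a mean of at least 0.5 FPKM, Benjamini-Hochberg adjusted over all of them. Fold changes are on that scale, which understates those of low genes. Single genes were also tested by a two-sided exact permutation test of mean FPKM (scipy 1.17.1). The test was checked on simulated data. Alternatives were pseudocounts of 1 and 0.01, filters, scalings, a replicate block, log2 Xist as a covariate, voom and leaving out each lung. The text names all 9 genes, up to 3 called genes per direction from each list, the 3 genes most like each tested gene, sex-linked genes and marker examples; Igf2, Lin28a, Mycl, Dicer1, Drosha, Tut4, Dis3l2, Sftpc, the uncalled MYC-regulated genes and the let-7 host transcripts were added to these. The genes and lists were chosen with earlier results of these data known. No columns were left out. The result of 1 marker list is not reported here.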

Additional observations from a re-analysis of the deposited data

How the results depend on the processing

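Igf2bp2 and Mycn kept their direction under every alternative run, and none of the 9 genes reversed. Lin28b could not reverse, as it had 0 fragments in every sham lung. For Hmga2 and Igf2bp1 the only limma fits were those without the filter and with voom. Over the settings, Igf2bp2 ran from -0.79 to -0.48 and Mycn from 0.68 to 1.01 on the log2 scale. Leaving out each lung in turn gave log2 fold changes of -0.71 to -0.59 for Igf2bp2, 0.79 to 1.01 for Mycn, 0.19 to 0.34 for Sox4 (past the threshold without IncPBF lung 4), 0.11 to 0.19 for Sox11, 0.01 to 0.09 for Hmga1 and 0.17 to 0.30 for Igf2bp3. Between 1 and 2 of the genes were then called higher and 1 lower. Of the other pathway genes 69 to 76 were called higher (75 as reported) and 12 to 22 lower (20 as reported, 12 without IncPBF lung 4). Over all 15388 tested genes, the same omissions gave 1950 to 2535 higher (2480 as reported) and 1919 to 2699 lower (2490 as reported). The difference in mean FPKM ranged over the same omissions from -0.15 to -0.0901 for Igf2bp1, 0.0692 to 0.132 for Igf2bp3 (exact permutation p = 0.0159 without sham lung 3), 3.55 to 6.53 for Sox4, 0.578 to 0.977 for Sox11, 0.0868 to 0.582 for Hmga1, 0.108 to 0.167 for Hmga2, 1.63 to 1.94 for Mycn, -1.42 to -1.19 for Igf2bp2 and 0.00147 to 0.00296 for Lin28b.

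With log2 Xist as a covariate, Mycn was at 0.91 (adjusted p = 0.108, limma), 0 of the genes were called higher, and 16 other pathway genes were called higher and 2 lower. With an equal total per lung, 3 of the genes were called higher, Sox4 at 0.32 and Sox11 at 0.22 beside Mycn. With voom on genes of at least 10 fragments, 2 were called higher, Hmga2 at 0.85 beside Mycn. As shares of fragments on genes, Hmga1 differed by 2.05, Sox4 by 30.7 and Sox11 by 10.2 CPM (exact permutation p = 0.00794, 0.0317 and 0.0159). The authors' divisor was 1.022 to 1.072 times the fragments on genes in IncPBF lungs and 0.958 to 1.032 times in sham lungs. The causes of these shifts were not tested.

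The labels number the lungs 1 to 5 in both groups. To compare an IncPBF with a sham lung, each gene's deviation from its group mean on log2(FPKM + 0.1) was correlated over all tested genes. The deviations of same-numbered lungs correlated by -0.0675 to 0.0854, with 0 of 5 pairs over 0.1. Those of lungs with different numbers correlated by -0.197 to 0.216, so the same-numbered pairs did not stand out. Shared levels are removed from such values, which do not measure how alike the lungs are. Whether such pairs have more than a number in common, for example a litter, was not tested. With a replicate block, Igf2bp2 was at -0.63 (adjusted p = 0.0028, limma) and Mycn at 0.90 (adjusted p = 0.00465, limma), and the count of all genes called was 2390 higher and 2482 lower, against 2480 and 2490. Low counts limit Hmga2, Igf2bp1 and Lin28b, of which the last had 2 fragments in all lungs together.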

Other observations

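Over all tested genes with an annotated 3′ UTR, the median log2 fold change (IncPBF minus sham) was 0.013 for 11661 genes without a let-7 seed match, -0.014 for 1210 genes with 1 match, -0.1 for 162 genes with 2 or more and -0.195 for 22 genes with 3 or more. Genes with more matches also had longer UTRs, with medians of 1047, 2167, 3648 and 4359 bases. Among genes with a 3′ UTR of at least 2500 bases, the median was -0.084 for 2149 genes without a match and -0.063 for 632 genes with at least 1. Hmga2, at 0.60 without the expression filter, and Igf2bp1, at -0.33, lay on opposite sides of these medians. These are descriptions, and no test was run on them.

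The E-box CACGTG, the letters that MYC family proteins bind, reads the same on both strands. In the 250 bases before to 50 bases after the annotated start (RefSeq, GRCm38.p6), Igf2bp3 held 2 and Lin28b 1. The letters were not in the windows of Igf2bp2, Hmga1, Hmga2, Mycn, Sox4 or Sox11, which says nothing of the rest of these genes. Of 32851 promoters, 7.15% held at least 1. Igf2bp1 was not matched.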
